A study of Saccharomyces cerevisiae with 21 samples.

Results

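The mitochondrial ribosomal protein genes of Saccharomyces cerevisiae were followed across 7 groups of chemostat cultures on Affymetrix YG-S98 arrays. Members were chosen by symbol: every gene with a probe set of its own whose symbol starts with MRPL, MRPS, MRP or RSM directly followed by a digit. The rule found 67 genes among the 5656 with a probe set of their own, and all 67 were among the 5461 genes tested. By the systematic names that RefSeq lists as synonyms, 38 members belong to the large subunit and 27 to the small subunit. The other two, MRP8 and RSM22, carry no such name: MRP8 is known as a protein that is no ribosomal subunit, and RSM22 as a methyltransferase-like protein that acts on the small subunit. A further 13 subunit genes have symbols outside the rule and were kept as comparison lists.

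Each group held 3 arrays, all from steady-state chemostats titled anaerobic, held at pH 5.0 with 0.10 culture volumes exchanged per h. The wild type was the prototrophic laboratory strain CEN.PK113-7D, grown with zinc (Zn), nitrogen (N), phosphorus (P), sulfur (S) or carbon (C, as glucose) as the limiting nutrient. The mutant, called msn2 msn4 here, was made in the same background with the genotype ura3 msn2::loxP msn4::loxP-kanMX-loxP and carried the plasmid p426(URA3), and it was grown under N or C limitation. MSN2 and MSN4 encode transcription factors of the general stress response. Residual glucose was aimed at 17 g/L in every group but those limited for carbon, so glucose was high in the first and low in the second group of every comparison with C limitation. For the N-limited wild type the deposited growth text speaks of air and of limiting glucose; these cultures were taken as N-limited and anaerobic from their titles.

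Mitochondria of yeast make a handful of proteins from their own genome, nearly all of them core subunits of the respiratory chain and the ATP synthase. The ribosome that translates them is built from mitochondrial rRNAs and many proteins, and almost all of those proteins are encoded in the nucleus, made in the cytosol and imported. Nuclear genes for mitochondrial function are known to be repressed by glucose, and many mRNAs for mitochondrial ribosomal proteins are known to be bound by the RNA-binding protein Puf3. In systematic names a leading u marks a protein shared by all domains of life, b one shared with bacteria, and m one found in mitochondria; the letter that follows gives the large (L) or small (S) subunit. Among the members 27 carry u, 14 carry b and 24 carry m.

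Several properties of the arrays bear on the values. Wild type under Zn, N and C limitation came in 3 separate deposits, and a single further deposit held the P- and S-limited wild type and both mutant groups. Within that last deposit groups can be compared directly; in all other comparisons deposit and group cannot be told apart. The arrays were brought to one trimmed mean signal, because as deposited they averaged between 150.1 and 465.9, so a value gives a gene's signal relative to the rest of its array and not an amount per cell. The 3'-to-5' ratio of actin signal, a measure of RNA integrity, ran from 1.05 to 1.20 in the C-limited wild type and from 1.18 to 1.67 elsewhere. MSN2 read 12 to 13.7 on the 6 mutant arrays, against 58 to 147 on the wild-type arrays. MSN4 read 34.5 to 55.6, against 47.3 to 153, above the floor and with overlap, and URA3, carried on the plasmid, 1090 to 2470, against 30.5 to 82.4. Replicate 1 of the C-limited msn2 msn4 group went against its label: DAL5, an allantoate permease gene induced when nitrogen is poor, read 1340, where replicates 2 and 3 of that group read 83.5 and 109 and the N-limited mutant 1580 to 2420. It is called the doubtful array below. It was kept as labelled. Because all arrays share one estimate of the spread, the number of members that passed in each comparison is also given with it left out; other counts are with all arrays unless stated.

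The level of the members as a whole separated the C-limited wild type from every other wild-type group. On each array the median log2 signal of the 67 members was set against the median of all genes tested on that array. The difference was -0.07 to 0.08 under Zn limitation, 0.08 to 0.22 under N limitation, -0.14 to 0.08 under P limitation and -0.16 to 0.02 under S limitation. On the 3 C-limited wild-type arrays it was 0.67, 0.87 and 0.67. Every glucose-excess wild-type array thus lay below every C-limited wild-type array by more than the spread within any of these groups. In the order of group means, C limitation came first and N limitation second. The lowest N-limited array, at 0.08, was level with the highest Zn- and P-limited arrays. The ranges under Zn, P and S limitation overlapped each other. Of the 67 members, 55 had their highest wild-type group mean under C limitation, against 21.8% of all genes tested, and 37 had their lowest under P limitation, against 31.8% of all genes tested. MRP20, MRP4 and MRPL4 had their highest group mean under P limitation, RSM23 under S limitation, RSM10 and RSM22 under Zn limitation, and MRP7, MRP8, MRPL1, MRPL22, MRPL7 and MRPS9 under N limitation. The C-limited wild type, where the members were highest, also had low actin ratios, which overlapped those of the N-limited wild type and mutant, and the part of RNA integrity in these differences was not tested. Within the C-limited mutant, replicates 2 and 3 had ratios of 1.29 and 1.24 and member levels of 0.95 and 0.63. The doubtful array of that group had a ratio of 1.42 and a member level of -0.11.

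**Figure D1:**
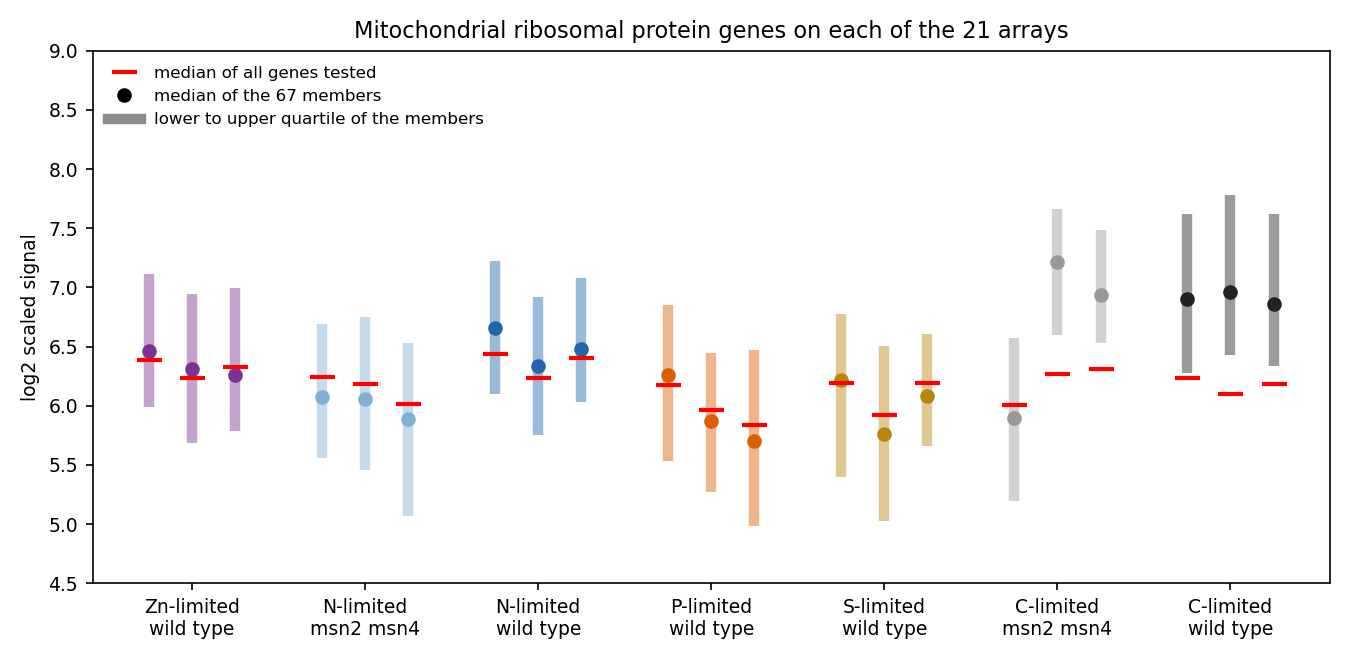
Log2 scaled signal on each of the 21 arrays, grouped by limitation and strain. Points give the median of the 67 members, bars their lower to upper quartile, and red dashes the median of all genes tested; the member median stands 0.63 to 0.95 above the red dash on the C-limited arrays, except the first C-limited mutant array, and between -0.17 and 0.22 of it on all others.

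Zn limitation was compared with C limitation in the wild type. The members stood lower: 22 of 67 fell at a limma adjusted p under 0.05 and none rose, where 12.5% of all genes tested fell and 16.7% rose. The median member differed by -0.60 on the log2 scale, which is -0.65 relative to the median of all genes. The fall was at least 2-fold for 13 members, against 5.71% of all genes tested. Leaving out the doubtful array gave 32 falls and no rise, where 14.4% of all genes tested fell and 18.1% rose. All arrays kept, 45 members had all 3 Zn-limited arrays below all 3 C-limited arrays, against 22.1% of all genes tested. MRPL37 (YBR268W, mL54) read 147, 154 and 160 under Zn limitation, against 539, 509 and 395 under C limitation, a log2 difference of -1.64 ± 0.23 (standard error of the fit, adjusted p = 3e-05). Its highest Zn-limited array lay below its lowest C-limited array by more than the range within either group. MRPL39 (YML009C, bL33m) read 227, 280 and 233, against 852, 673 and 717, a log2 difference of -1.60 ± 0.36 (adjusted p = 0.0026). RSM7 (YJR113C, uS7m), whose bacterial counterpart binds the head of the small subunit, read 182, 167 and 190, against 512, 461 and 431, a log2 difference of -1.38 ± 0.18 (adjusted p = 2.1e-05). None of these 3 genes overlapped between the groups. MRPL32 (bL32m) and MRPL25 (mL59) followed at -1.29 ± 0.29 and -1.27 ± 0.35; MRPL25 did not pass without replicate 1 of the C-limited group. On the deposited scale, where the median of all genes differed by 0.86, 6 members rose and 2 fell. Scaling to a common median gave 34 falls, and fitting the compared groups alone 35, with no rise in either.

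N limitation gave the smallest shift of the members among the 4 comparisons with C limitation on the trimmed-mean scale, close to that under Zn limitation. Of 67 members 17 fell and 1 rose, where 8.72% of all genes tested fell and 14.8% rose, and the median member differed by -0.46, or -0.56 relative to all genes. Over the alternatives run the relative median overlapped that under Zn limitation, at -0.65 to -0.50 against -0.70 to -0.58. On the deposited scale the median member differed by -0.26 under N and 0.22 under Zn limitation. At least 2-fold falls were found in 6 members, against 3.85% of all genes tested. With the doubtful array left out 21 fell and 1 rose, where 10.1% of all genes tested fell and 17% rose, and without replicate 1 of the C-limited wild type 10 fell and 1 rose. Scaling to a common median or quantile normalization, which lowers the N-limited values, gave 29 falls and 1 rise. MRPL39 read 271, 168 and 241 under N limitation, against the C-limited values above, a log2 difference of -1.74 ± 0.36 (adjusted p = 0.0024). MRPL37 read 191, 112 and 195, a log2 difference of -1.57 ± 0.23 (adjusted p = 0.00012). Both lay below every C-limited array. MRPS16 (YPL013C, bS16m) read 191, 147 and 188, against 399, 509 and 350, a log2 difference of -1.25 ± 0.17 (adjusted p = 7.8e-05). MRPL32 and MRPL10 (uL15m) fell by 1.44 ± 0.29 and 1.13 ± 0.24 on the log2 scale. The gene that rose was MRP8, which is no ribosomal subunit. It read 417, 584 and 402 under N limitation, against 243, 241 and 244 under C limitation, 1.90-fold higher (log2 0.92 ± 0.24, adjusted p = 0.0094). Of the members that are subunits, none rose.

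P limitation gave the largest number of falls on the trimmed-mean scale, though not under every scaling. Of 67 members 47 fell and none rose, where 18% of all genes tested fell and 7.58% rose. The median member differed by -1.02 on the log2 scale, or -0.86 relative to all genes, and 34 members fell at least 2-fold, against 7.73% of all genes tested. When the doubtful array was left out 53 fell and 1 rose, where 20.8% of all genes tested fell and 8.53% rose. The gene that rose was MRP4. With all arrays, quantile normalization gave 40 falls and 1 rise under P limitation, against 45 falls under S limitation. Scaling to a common median gave 38 falls and 1 rise under P limitation, against 42 falls under S limitation. The arrays of 56 members lay below all C-limited arrays without overlap, against 27.7% of all genes tested. MRPL32 (YCR003W) read 78, 45 and 63.1 under P limitation, against 200, 230 and 210 under C limitation, a log2 difference of -1.82 ± 0.29 (adjusted p = 0.00028). RSM26 (YJR101W, mS42), which resembles a superoxide dismutase, read 33.7, 27.2 and 24.8, against 134, 87.3 and 76.4, a log2 difference of -1.77 ± 0.36 (adjusted p = 0.0019). MRPL39 and MRPL51 (mL43) fell by 1.74 ± 0.36 and 1.73 ± 0.38. MRP35 (bL35m) read 13 and, on the other two arrays, the floor of 12, against 53.6, 42.6 and 30.1, so it was at least 3.32-fold lower.

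S limitation gave a shift close in size. Of 67 members 43 fell and none rose, where 13% of all genes tested fell and 9.12% rose. The median member differed by -0.97, or -0.92 relative to all genes, and 32 fell at least 2-fold, against 6.17% of all genes tested. The count without the doubtful array was 48, where 15.6% of all genes tested fell and 10.3% rose, and with all arrays 49 members lay below all C-limited arrays with no overlap, against 22% of all genes tested. Leaving out replicate 2 of the S-limited group lowered the count to 26, and leaving out replicate 2 of the C-limited wild type to 28. MRPS8 (YMR158W, uS8m), whose bacterial counterpart binds the central domain of the small subunit rRNA, read 29.2, 18.4 and 24.4 under S limitation, against 120, 80.9 and 59.1 under C limitation, a log2 difference of -1.82 ± 0.37 (adjusted p = 0.0022). RSM26 read 41.1, 21.2 and 28.2, a log2 difference of -1.73 ± 0.36 (adjusted p = 0.0026). MRP21 (bS21m) read 23.5, 16.8 and 27.4, against 70.2, 73.9 and 65.6, a log2 difference of -1.66 ± 0.30 (adjusted p = 0.00083). None of the 3 overlapped between groups. MRP35 was at least 3.18-fold lower, with the floor reached on 2 of the S-limited arrays, and MRPL39 differed by -1.66 ± 0.36.

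These 4 comparisons share their C-limited arrays and are not independent. For P and S limitation the C-limited mutant offers arrays of the same deposit, a comparison added after the data were seen. Against all 3 of its arrays 15 members fell under P limitation and none rose, where 5.9% of all genes tested fell and 2.93% rose. Under S limitation 6 fell and 1 rose (MRP8), where 2.91% fell and 3.17% rose. Against the 2 arrays that remain without the doubtful one, 52 members fell under P limitation and 45 under S limitation, and none rose, where 10.6% of all genes tested fell and 3.53% rose under P limitation and 7.25% fell and 3.99% rose under S limitation. The median member then differed by -1.10 under P and -0.95 under S limitation. Strain differs in these comparisons as well.

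**Figure D2:**
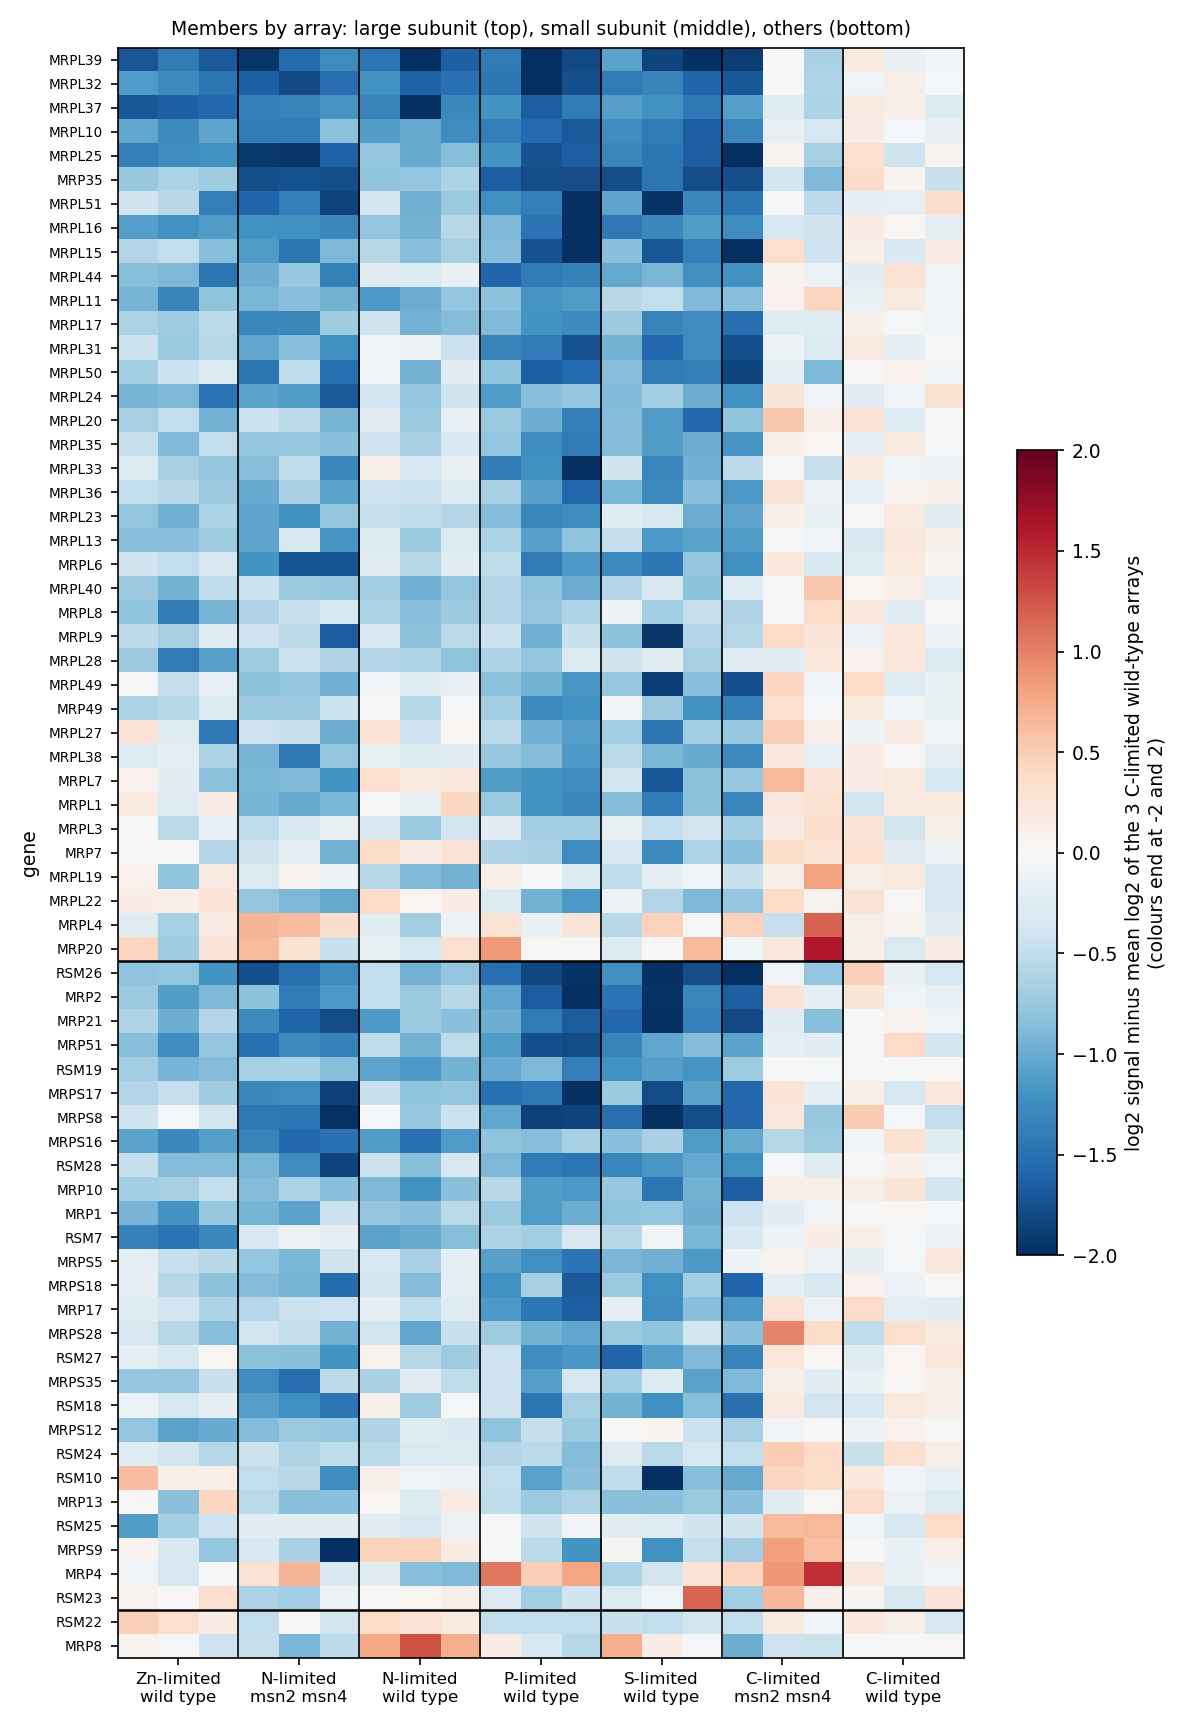
Log2 scaled signal of each member on each of the 21 arrays, minus the mean of the 3 C-limited wild-type arrays; blue is lower and red higher, and genes are ordered within each subunit by their mean under Zn, N, P and S limitation. Most large and small subunit genes are blue in all groups but the C-limited ones; the first of the C-limited mutant arrays is blue as well, and MRPL4, MRP20, MRP4, RSM23 and MRP8 hold pale or red cells outside the C-limited groups.

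The falls were spread over both subunits. Of the 38 large subunit members 15 fell under Zn, 11 under N, 30 under P and 26 under S limitation, with median log2 differences from C limitation of -0.62, -0.47, -1.06 and -1.00. Of the 27 small subunit members 7, 6, 17 and 17 fell in the same order, with medians of -0.58, -0.48, -0.94 and -0.89. Among all genes tested 12.5%, 8.72%, 18% and 13% fell. With the doubtful array left out, 20, 13, 32 and 29 large subunit members and 12, 8, 20 and 19 small subunit members fell. The shares of all genes tested that fell in that fit were 14.4%, 10.1%, 20.8% and 15.6%. No member of either subunit rose in these 4 comparisons with all arrays, and MRP4 rose under P limitation without that array. By evolutionary class the medians under Zn, N, P and S limitation were -0.49, -0.48, -1.02 and -0.89 for the universal proteins, -0.71, -0.59, -1.22 and -1.05 for those shared with bacteria, and -0.65, -0.46, -1.00 and -1.02 for those found in mitochondria. Of the 14 proteins shared with bacteria 7, 6, 11 and 11 fell, or 9, 7, 14 and 13 without the doubtful array. The differences between subunits and between classes were not tested.

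**Figure D3:**
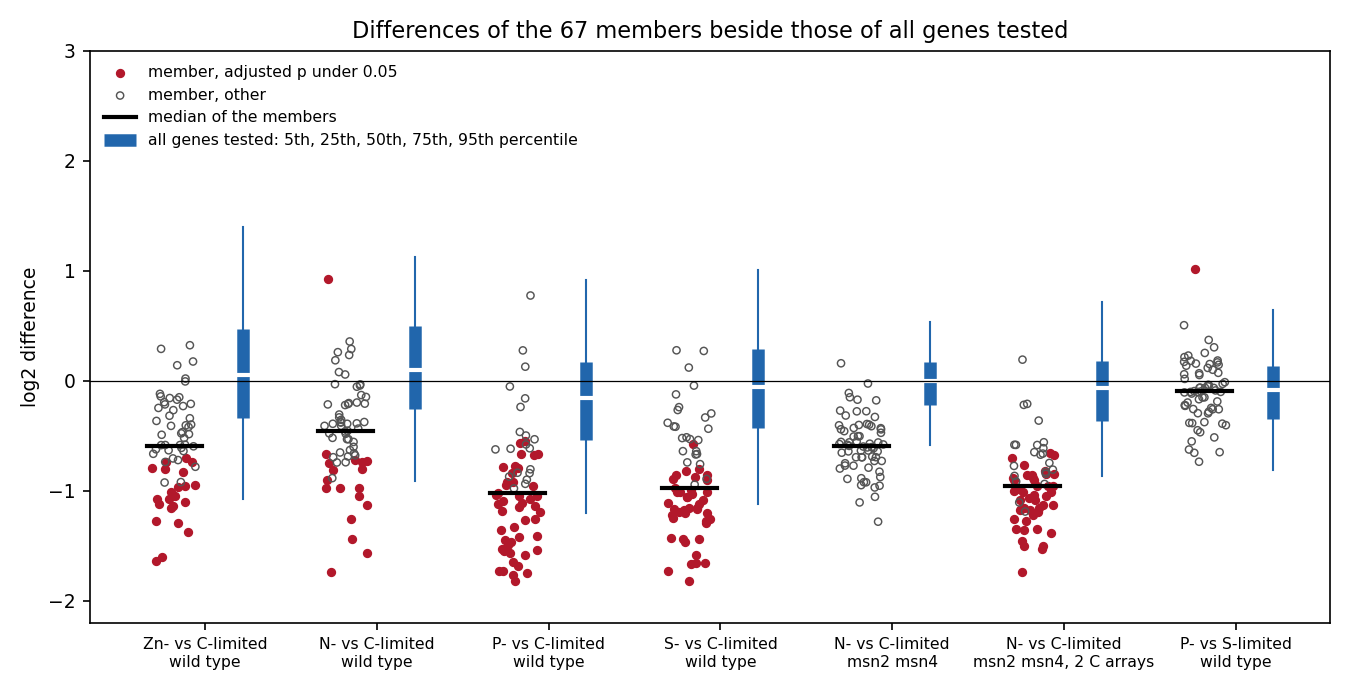
Log2 differences of the 67 members (points, jittered, with their median as a black line) beside the distribution of all genes tested (blue, with a white dash at the median) in 7 comparisons. The member medians are -0.60, -0.46, -1.02 and -0.97 for Zn, N, P and S against C limitation, -0.59 and, without the doubtful array, -0.96 for N against C limitation in the mutant, and -0.10 for P against S limitation.

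The 5 members that varied most over the wild-type group means were MRPS8, MRPL39, RSM26, MRP35 and MRPL32, and the 5 that varied least were MRP20, MRPL4, MRPL3, RSM24 and RSM25. MRPL4 (uL29m) read 84, 62.8 and 111 under Zn, 84.3, 61.1 and 91 under N, 120, 90.8 and 117 under P, and 67.4, 136 and 97.4 under S limitation, against 109, 104 and 85.9 under C limitation. Its groups overlapped, and its log2 differences from C limitation ran from -0.36 under N to 0.13 under P limitation, none of them passing. MRP20 (uL23m), whose bacterial counterpart sits at the exit of the peptide tunnel, differed from C limitation by 0.28 ± 0.41 under P and 0.12 ± 0.41 under S limitation and also passed nowhere. RSM24 (mS35) fell under P limitation (-0.66 ± 0.23, adjusted p = 0.042) and RSM25 (mS23) under Zn limitation (-0.74 ± 0.25, adjusted p = 0.032). A total of 6 members were at the floor on some array, which leaves their lower levels as bounds: RSM22 and MRP13 on 6 arrays each, MRP35 on 7, RSM23 on 3, and MRPL50 and MRPS5 on 1 each. RSM22 read 23.7, 21.4 and 18.8 under Zn, 22.2, 20.7 and 19.4 under N, the floor of 12 on all arrays under P, and 12.5, 12 and 13.1 under S limitation, against 19.6, 18.4 and 13.5 under C limitation, and passed in none of these comparisons.

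MRPS12 (YNR036C, uS12m) and RSM19 (YNR037C, uS19m) are the only members that neighbour each other in the annotation. The bacterial counterpart of the first lies at the decoding centre. MRPS12 read 198, 163 and 169 under Zn, 224, 287 and 275 under N, 196, 245 and 203 under P, and 341, 355 and 253 under S limitation, against 317, 360 and 346 under C limitation. It fell under Zn (-0.95 ± 0.18, adjusted p = 0.00068) and P limitation (-0.67 ± 0.18, adjusted p = 0.011). Its S-limited arrays overlapped the C-limited ones, with a difference of -0.12 ± 0.18. RSM19 read 94.4, 80.9 and 83.9, then 74.2, 69.2 and 79.9, then 76.5, 82.5 and 58.8, and then 66.4, 71.5 and 67.9 in the same groups, against 151, 154 and 155 under C limitation. It lay below C limitation without overlap in each, by 0.83 to 1.16 on the log2 scale (-0.83 ± 0.17 under Zn and -1.16 ± 0.17 under S limitation). MRPL44 is the only member with a pair of probe sets of its own; the dimmer one, not used in the tests, differed by -0.88 under both P and S limitation, where the one used differed by -1.45 and -1.06.

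**Figure D4:**
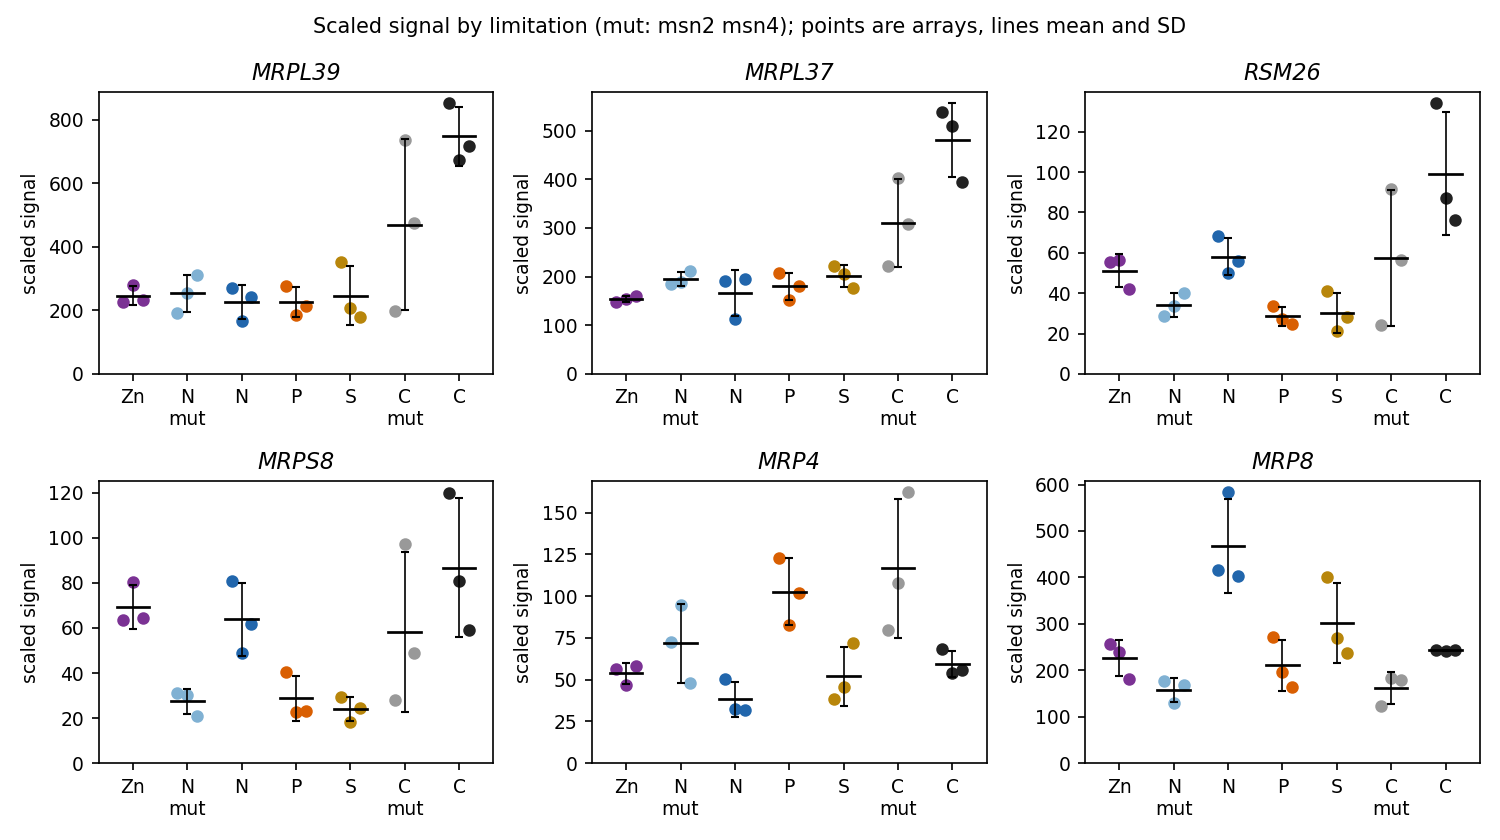
Scaled signal of 6 members on each array (points), with mean and SD of each group of 3 (lines), on axes that start at 0. MRPL39, MRPL37 and RSM26 are highest under C limitation, MRPS8 is low under P and S limitation and in the N-limited mutant, MRP4 is highest in the C-limited mutant and under P limitation, and MRP8 is highest under N limitation.

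Among the glucose-excess groups the members differed less than in the comparisons with C limitation when set against the median of all genes. The plain median difference was not always smaller: it was larger for N against P or S limitation than for N against C limitation. Between P and S limitation, the one wild-type pair from a single deposit, 1 of 67 members rose and none fell, where 2.77% of all genes tested rose and 4.61% fell; the median member differed by -0.10, or -0.01 relative to all genes. The gene was MRP4 (YHL004W, uS2m), which read 123, 82.9 and 102 under P limitation, against 38.2, 45.7 and 71.9 under S limitation, 2.02-fold higher without overlap (log2 1.02 ± 0.29, adjusted p = 0.041). It did not pass when replicate 1 or 3 of the P-limited or replicate 1 or 2 of the S-limited group was left out, with log2 differences of 0.82 to 1.01. It also did not pass on the deposited scale, with no filter on dim genes, with only these groups fitted or with the replicate block. Leaving out the doubtful array, or replicate 3 of the S-limited group, gave 1 fall beside 1 rise; without the doubtful array 3.39% of all genes tested rose and 6.19% fell.

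Under N limitation the members stood higher than under P or S limitation. Against P limitation 19 rose and 3 fell, where 26.8% of all genes tested rose and 6.65% fell, and the median member differed by 0.64, or 0.36 relative to all genes. The share that rose is close to that of all genes. Quantile normalization gave 8 rises and 5 falls and scaling to a common median 11 and 4. Omitting the doubtful array gave 32 rises and 3 falls, where 30.4% of all genes tested rose and 7.36% fell, and leaving out replicate 1 or 3 of the N-limited or replicate 3 of the P-limited group gave 12, 13 and 10 calls in either direction. MRPL7 (YDR237W, uL5m) read 121, 109 and 112 under N limitation, against 44.4, 42.1 and 40.3 under P limitation, 2.70-fold higher without overlap (log2 1.43 ± 0.33, adjusted p = 0.0037). MRPL33 (uL30m), MRPL31 (mL60), MRPL44 (mL53) and MRPS8 rose by 1.41 ± 0.26, 1.28 ± 0.30, 1.22 ± 0.26 and 1.18 ± 0.37. MRP4 went the other way: it read 50.3, 32.6 and 31.9 under N limitation and was 2.70-fold lower (log2 -1.44 ± 0.29, adjusted p = 0.0018). MRPL19 (uL11m) and MRPS16 also fell, by 0.75 ± 0.28 and 0.48 ± 0.17, and each lost its call when any one array of either group was left out.

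Against S limitation 13 members rose and none fell, where 17.9% of all genes tested rose and 7.16% fell, and the median differed by 0.53, or 0.36 relative to all genes. Here too the share that rose with all arrays is close to that of all genes. Quantile normalization gave 8 rises and 3 falls and scaling to a common median 7 and 4, while 28 rose and none fell without the doubtful array, where 21.5% of all genes tested rose and 8.09% fell. Leaving out replicate 1 or 3 of the N-limited group left 4 rises each, and leaving out replicate 2 of the S-limited group left 3. MRPS8 read 81, 48.9 and 61.7 under N limitation, against the S-limited values given above, 2.65-fold higher without overlap (log2 1.41 ± 0.37, adjusted p = 0.011). MRPL7, RSM10 (uS10m), MRPL1 (uL1m) and MRPL31 rose by 1.21 ± 0.33, 1.13 ± 0.38, 1.11 ± 0.32 and 1.05 ± 0.30.

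Under Zn limitation the members stood near their N-limited level. Against N limitation 3 fell and none rose, where 8.51% of all genes tested fell and 7.78% rose, and the median member differed by -0.07, or -0.01 relative to all genes. The 3 were MRP8, at 256, 240 and 182 under Zn against 417, 584 and 402 under N limitation (log2 -1.04 ± 0.24, adjusted p = 0.0048), MRPL44 (-0.85 ± 0.26) and MRPS12 (-0.56 ± 0.18). The counts were the same without the doubtful array, where 9.89% of all genes tested fell and 8.62% rose. Leaving out replicate 2 or 3 of the N-limited or replicate 3 of the Zn-limited group left 1 call each.

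Against P limitation 12 members rose and 2 fell under Zn limitation, where 24.8% of all genes tested rose and 8.88% fell. Against S limitation 8 rose and 4 fell, where 21% rose and 12.6% fell. With all arrays the share of members that rose thus lay below that of all genes in both. The medians relative to all genes were 0.25 against P and 0.21 against S limitation. Other scalings changed these splits: quantile normalization gave 5 rises and 6 falls against P limitation and 3 and 6 against S limitation, and a common median 8 and 7, and 7 and 8. On the deposited scale 66 rose against P and 67 against S limitation, and none fell. There the median of all genes itself differed by 1.68 against P and 1.57 against S limitation, and the member median by 1.93 and 1.82. Omitting the doubtful array there were 24 rises and 3 falls against P limitation, where 27.8% of all genes tested rose and 10% fell, and 16 rises and 4 falls against S limitation, where 24% rose and 13.7% fell. In that fit the share of members that rose lay above that of all genes against P limitation and close to it against S limitation. Leaving out replicate 3 of the P-limited or replicate 1 of the Zn-limited group left 4 and 7 calls against P limitation, and leaving out replicate 2 of the S-limited group left 7 against S limitation. MRPS8 read 63.3, 80.6 and 64.4 under Zn limitation, against 40.4, 22.7 and 23 under P and 29.2, 18.4 and 24.4 under S limitation, 2.50-fold and 2.93-fold higher (log2 1.32 ± 0.37 and 1.55 ± 0.37, adjusted p = 0.011 and 0.0038). RSM10 and MRPL1 rose against both as well. RSM7 fell against both, by 0.83 ± 0.18 and 0.86 ± 0.18, with Zn-limited arrays of 167 to 190 against 291 to 372 under P and 248 to 445 under S limitation. MRP4 was the other member that fell against P limitation, and MRPS12, MRPL28 (mL40) and MRPL8 (bL17m) fell against S limitation.

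In the msn2 msn4 mutant N limitation was compared with C limitation within one deposit. With all arrays no member passed, where 0.0549% of all genes tested rose and 0.0183% fell. Of the members' differences 66 of 67 were negative and the median was -0.59, where the median over all genes tested was -0.006. In 10 members all N-limited arrays lay below all C-limited arrays, against 3.86% of all genes tested. At an unadjusted p under 0.05 limma gave 34 members, or 50.7%, against 10.4% of all genes tested. Without the doubtful array 45 of 67 fell and none rose, 27 of them at least 2-fold, where 4.74% of all genes tested fell, 3.19% at least 2-fold, and 3.04% rose, and the median was -0.96, or -0.89 relative to all genes. MRPL25 (YGR076C), picked here from the fit without the doubtful array, is an example of this change. It read 49, 48.8 and 61.3 in the N-limited mutant, against 196 and 118 on the other C-limited mutant arrays and 43.3 on the doubtful one. Its log2 difference was -0.92 ± 0.35 (adjusted p = 0.32) with all arrays and -1.53 ± 0.23 (adjusted p = 0.00043) without that array. MRPS9 (uS9m) and MRPL7 fell by 1.74 ± 0.45 and 1.46 ± 0.31 without it, and MRPS17 (uS17m) and MRPL6 (uL6m) lay between them. On the doubtful array 65 of 67 members read lower than on both other arrays of its group, against 51.7% of all genes tested. A total of 57 members, or 85.1%, read no higher there than on the highest N-limited mutant array, close to the 83.8% of all genes tested. The other two arrays both read above every N-limited mutant array in 62 members, against 23.8% of all genes tested. Its member level, -0.11 relative to the median of all genes, lay beside those of the N-limited mutant (-0.17 to -0.12) and far from the 0.95 and 0.63 of the other two.

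Under C limitation the mutant was compared with the wild type. With all arrays 2 members fell and none rose, where 4.03% of all genes tested fell and 3.59% rose, and the median member differed by -0.34. MRPS16 fell by 0.77 ± 0.17 (adjusted p = 0.011), and MRP35 by 1.01 ± 0.25 (adjusted p = 0.02) with the floor reached on the doubtful array. Without that array neither passed (adjusted p = 0.064 and 0.095), the median was 0.01, and 1 member rose, where 1.72% of all genes tested rose and 2.03% fell. That gene was MRP4, at 108 and 162 on the 2 remaining mutant arrays, against 68.5, 54.1 and 55.8 in the wild type (log2 1.16, adjusted p = 0.043). Leaving out replicate 2 of the mutant in place of the doubtful array gave 13 falls, leaving out replicate 1 of the wild type 1, and leaving out replicate 2 of the wild type none. With all arrays quantile normalization gave 1 rise and 4 falls and a common median 1 and 6.

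Under N limitation the members stood lower in the mutant than in the wild type. Of 67 members 13 fell and 2 rose, where 13% of all genes tested fell and 5.57% rose; the median member differed by -0.52, or -0.38 relative to all genes, and 9 fell at least 2-fold, against 5.49%. Leaving out the doubtful array gave 24 falls and 2 rises, where 16.8% of all genes tested fell and 7.01% rose, while quantile normalization gave 9 falls and 5 rises and a common median 8 and 5. Leaving out any one array of either group gave 5 to 9 calls. MRP8 changed most, at 177, 129 and 168 in the mutant, against 417, 584 and 402 in the wild type (log2 -1.56 ± 0.24, adjusted p = 0.00028). MRPL7 read 51.3, 52.2 and 42.2, against 121, 109 and 112 (log2 -1.24 ± 0.33, adjusted p = 0.017). MRPL6 read 38.2, 26.2 and 26.2, against 74.6, 58.7 and 75.7 (log2 -1.22 ± 0.30, adjusted p = 0.011). None of these overlapped. MRPS9 and MRPS8 fell by 1.39 ± 0.46 and 1.21 ± 0.37. MRPS9 read 85.5, 66.9 and 24 in the mutant, against 145, 145 and 117 in the wild type, and did not pass when replicate 2 or 3 of the mutant or any array of the wild type was left out; without replicate 3 of the mutant the difference was -0.84. RSM7 rose, at 377, 433 and 406 in the mutant, against 223, 233 and 259 in the wild type (log2 0.77 ± 0.18, adjusted p = 0.0093), and MRP4 rose with overlap (0.88 ± 0.29, adjusted p = 0.045). The groups come from separate deposits, and the deposited trimmed mean was 150.1 to 150.2 on the mutant arrays, against 246.8 to 311.1 on the wild-type arrays.

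The difference between the mutant effects under N and under C limitation was tested as a contrast of its own. No member passed with all arrays, where 1.12% of all genes tested lay lower and 0.568% higher. At an unadjusted p under 0.05 limma gave 8 members, or 11.9%, against 16.9% of all genes tested. Without the doubtful array 3 members lay lower and none higher, where 1.89% of all genes tested lay lower and 0.769% higher.

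Other genes of mitochondrial gene expression were compared with the members through lists chosen, like the members, with earlier results of these data known. Among all genes tested 12.5%, 8.72%, 18% and 13% fell under Zn, N, P and S limitation against C limitation, and 16.7%, 14.8%, 7.58% and 9.12% rose. Without the doubtful array 14.4%, 10.1%, 20.8% and 15.6% of them fell. The 35 nuclear subunits of the respiratory chain and ATP synthase stood further down than the members: 26 fell under Zn, 21 under N, 32 under P and 27 under S limitation against C limitation, 1 rose (COX5B, under N limitation), and the medians were -1.31, -1.16, -1.60 and -1.27. COX5A, the aerobic isoform of a cytochrome c oxidase subunit, fell by 2.47 ± 0.40 to 2.88 ± 0.40 in these comparisons. The 8 large subunit genes with other names had 5, 3, 5 and 3 falls and no rise, and medians of -0.91, -0.70, -0.85 and -0.69. RML2, a large subunit protein counterpart of bacterial uL2, fell in all, by 1.01 ± 0.28 to 1.25 ± 0.28. The 5 small subunit genes with other names had 0, 0, 2 and 1 falls and medians of -0.35, -0.10, -1.11 and -1.09. Leaving out the doubtful array, the falls were 31, 28, 33 and 31 of the respiratory genes, 6, 4, 7 and 4 of the large subunit genes and 0, 1, 3 and 3 of the small subunit genes with other names.

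The lists around translation itself were counted in the same way, beside the same shares of all genes tested. Those that fell were 12.5%, 8.72%, 18% and 13% with all arrays and 14.4%, 10.1%, 20.8% and 15.6% without the doubtful array. With all arrays the share of assembly genes that fell under P limitation, given below, lay close to that of all genes. So did the shares of translation factors that fell under Zn and N limitation. Of 15 activators that act on single mitochondrial mRNAs none fell under Zn and N limitation, 11 fell under P and 9 under S limitation, and AEP3 rose under Zn limitation (0.59 ± 0.21, adjusted p = 0.04). PET111, needed to translate the mRNA of a cytochrome oxidase core subunit, fell by 1.31 ± 0.27 under P and 1.09 ± 0.27 under S limitation. Of 8 genes of mitochondrial DNA maintenance and transcription none fell under Zn and N, 7 under P and 5 under S limitation; RPO41, the mitochondrial RNA polymerase, differed by 0.15 ± 0.34, -0.44 ± 0.34, -1.42 ± 0.34 and -1.17 ± 0.34. Of 9 translation factors 1, 1, 6 and 3 fell, and MEF1, an elongation factor, fell in all 4, by 1.34 ± 0.36 (N) to 1.79 ± 0.36 (P). Of 13 mitochondrial aminoacyl-tRNA synthetases 4, 3, 8 and 4 fell. Of 9 assembly and membrane anchoring genes 3, 5, 2 and 3 fell and 1 rose in each, namely MRM2, an rRNA methyltransferase, under Zn (0.66 ± 0.21) and N limitation (1.22 ± 0.21) and OXA1, the insertase that receives the ribosome's products, under P (2.83-fold, adjusted p = 0.0029) and S limitation (2.05-fold, adjusted p = 0.03). Leaving out the doubtful array gave 1, 1, 11 and 10 falls of activators, 0, 0, 7 and 6 of DNA maintenance and transcription genes, 4, 2, 6 and 5 of translation factors, 5, 4, 11 and 6 of synthetases, and 3, 5, 3 and 3 of assembly genes, and a rise of 2 activators under Zn limitation. Differences between the limitations in these lists were not tested.

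Of 20 genes of mitochondrial protein import 4, 5, 8 and 7 fell under Zn, N, P and S limitation and 1 rose under P limitation, with medians of -0.19, -0.20, -0.59 and -0.40. Among all genes tested 12.5%, 8.72%, 18% and 13% fell, or 14.4%, 10.1%, 20.8% and 15.6% without the doubtful array. Of 18 single-copy cytosolic ribosomal protein genes 6, 5, 1 and 0 fell and none rose, with medians of -0.49, -0.31, -0.25 and 0.03, and these counts were the same without the doubtful array. For the import genes that fit gave 6, 5, 11 and 7 falls, and 1 rise under P and under S limitation. Among 11 regulators, HAP4, the activating subunit of the Hap complex that is itself known to be glucose-repressed, fell under N, P and S limitation by 1.57 ± 0.41, 1.88 ± 0.41 and 1.93 ± 0.41 (adjusted p = 0.012, 0.0032 and 0.0031), while its difference under Zn limitation was -0.65 ± 0.41 (adjusted p = 0.25; 0.0067 without the doubtful array). HAP5 fell under Zn and N limitation, by 0.63 ± 0.22 and 0.79 ± 0.22. ABF1 rose under Zn (1.53 ± 0.22) and N limitation (0.83 ± 0.22), and RAP1 under Zn limitation (1.47 ± 0.21). In the mutant none of the 35 respiratory genes passed under N against C limitation with all arrays (median -0.76, with 19 at an unadjusted p under 0.05 in limma). Without the doubtful array 28 fell, with a median of -1.30, where 4.74% of all genes tested fell. Of the 18 cytosolic ribosomal protein genes none passed in either fit, also at an unadjusted p under 0.05, with medians of 0.06 and 0.08.

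**Figure D5:**
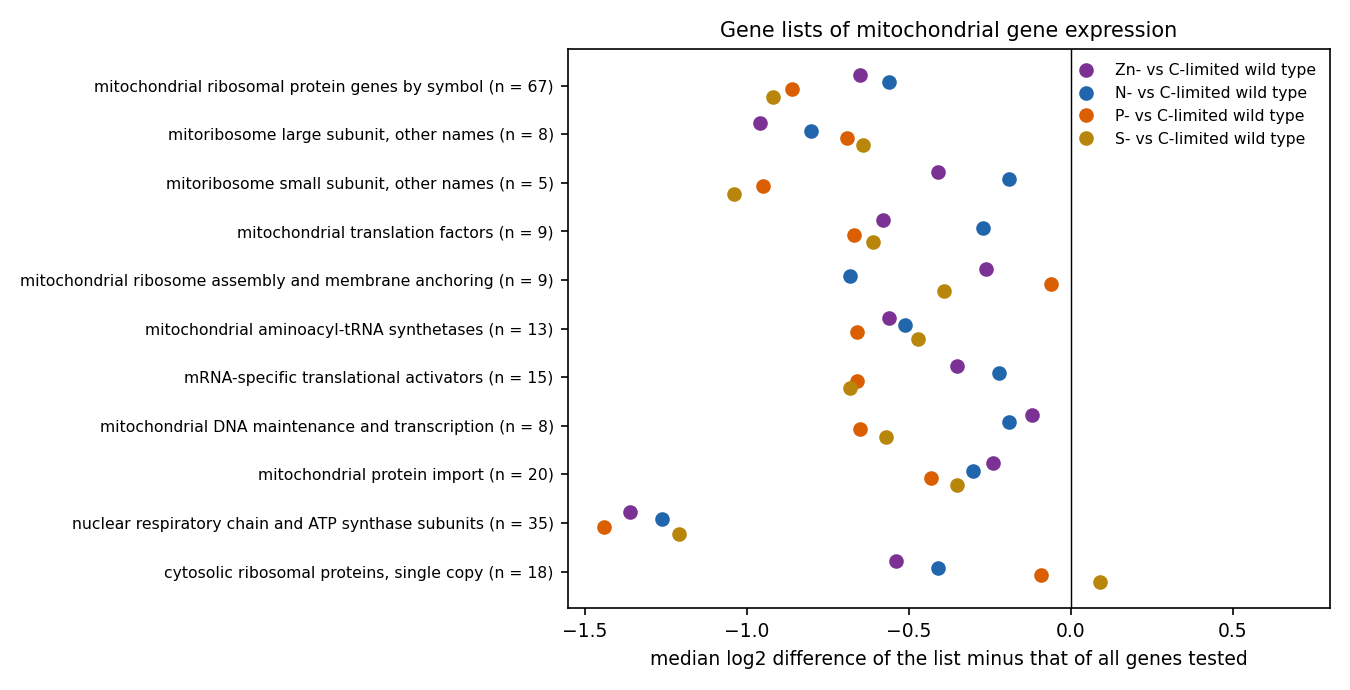
Median log2 difference of each gene list minus that of all genes tested, for Zn-, N-, P- and S-limited against C-limited wild type, with the number of genes measured. The 67 members lie between -0.92 and -0.56, the respiratory genes between -1.44 and -1.21, and the cytosolic ribosomal protein genes between -0.54 and 0.09.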

How the data were processed

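The authors' deposited table holds linear signal intensity for 9335 YG-S98 probe sets on 21 arrays, made with Affymetrix software (GCOS, version 1.2 for the S- and P-limited and mutant arrays, per the submitters' processing notes). All arrays were multiplied to the same mean signal (150.2, after trimming 2% at each end), with a floor of 12, and log2 transformed. Probe sets of 1 gene were kept (6504), the brightest for each gene, and 195 of 5656 genes that never exceeded the floor were not tested. Means of the 7 groups were fitted in limma 3.58.1 (R 4.3.3) over all arrays, with Benjamini-Hochberg adjustment over 5461 genes; a gene passed at an adjusted p under 0.05. Errors after ± are standard errors of the fit. With 3 arrays a group, the number of arrays limits the precision; where separate cultures are not stated (C-limited wild type), p-values cover the spread between these samples only. The fit was tested before use on simulated arrays with noise drawn independently for each gene. Shifts shared by many genes of an array were not covered by that simulation.

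The members and lists were chosen with earlier results of these data known. By a fixed rule the text names, for each comparison, up to 5 passing members with the largest rise and fall and no overlap between arrays, members that pass against the majority, the most and least variable, those at the floor, MRP8 and RSM22, and up to 3 passing genes of a list. The rule also named the brightest and dimmest members; these are left out, since signals of different probe sets are not comparable. MRPS12 and RSM19 as neighbours, MRPL44, RPO41 and some list genes were named after their values were seen. The rule named no member for N against C limitation in the mutant. Those given there (MRPL25, MRPS9, MRPL7, MRPS17 and MRPL6) were picked from the fit without the doubtful array. TSF1 and MTG3 were not matched. Replicate numbers did not pair the arrays: the correlations of same-numbered arrays in their deviations from group means ran from -0.40 to 0.30, and in no comparison were all over 0.1. Alternatives tried were the deposited scale, quantile and median scaling, floor and filter, probe-set choice, fit of the compared groups alone, replicate block and leaving out each array. Sequences are not used here. Probe-set genes came from the platform annotation and names from RefSeq (R64).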

Additional observations from a re-analysis of the deposited data

Results flagged for a closer look

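With the doubtful array left out, 3 members differed between the effects of the msn2 msn4 mutation under N and under C limitation in the contrast of the effects (limma, adjusted over all genes). MRPL7 lay lower by -1.69 ± 0.41 on the log2 scale (adjusted p = 0.037), MRPL1 by -1.30 ± 0.32 (adjusted p = 0.038) and MRPL22 (uL22m) by -1.32 ± 0.34 (adjusted p = 0.05). MRPL22 lay just under the threshold of 0.05 before rounding. With all arrays the contrasts for MRPL7, MRPL1 and MRPL22 were -1.29, -0.77 and -0.98, with adjusted p = 0.18, 0.41 and 0.21. MRPL1 read 32.8, 30.9 and 32.9 in the N-limited mutant, against 61.3, 55.9 and 82.7 in the N-limited wild type. Under C limitation it read 25.3, 72.9 and 76.7 in the mutant, the first of them on the doubtful array, against 47.8, 70.9 and 71 in the wild type. MRPL22 read 22.3, 20.6 and 19 in the N-limited mutant, against 50.1, 39.4 and 42.6 in the wild type, and 22.6, 50.5 and 40.2 in the C-limited mutant, against 46.7, 39.3 and 31.2. Only these 3 of the 67 members passed, and the 4 groups come from 3 deposits, so deposit and group cannot be told apart in this contrast.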

How the results depend on the processing

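Relative to the median of all genes, the members lay below C limitation under every alternative run, by -0.70 to -0.58 under Zn, -0.65 to -0.50 under N, -0.94 to -0.71 under P and -0.97 to -0.77 under S limitation. Counts of passing members, in either direction, moved as follows. On the deposited scale they were 10 (N against C), 8 (Zn against C, 6 of them rises), 0 (P against S), 59 (N against S), 62 (N against P), 11 (Zn against N), 67 (Zn against S), 66 (Zn against P), 52 (mutant against wild type under C) and 60 (under N limitation); there the median of all genes itself differed by up to 1.68, and the member median reversed to 0.22 for Zn against C and was 0.54 for Zn against N. Also on that scale MRPL19 and MRPS16 reversed for N against P (0.13 and 0.40), MRPS12 for Zn against N (0.05), RSM7, MRPS12, MRPL28 and MRPL8 for Zn against S (0.63, 0.66, 0.84 and 0.86), MRP4 and RSM7 for Zn against P (0.57 and 0.66), and RSM7 for the N-limited mutant against the wild type (-0.11). Quantile normalization gave 30 (N against C), 13 (N against P), 5 (C-limited mutant against wild type) and 1 (difference of effects). A common median gave 30 (N against C), 34 (Zn against C) and 7 (C-limited mutant), and turned the median difference of effects, -0.14 on the trimmed-mean scale, to 0.08, as quantile normalization did to 0.03. Fitting only the groups compared gave 35 (Zn against C), 0 (P against S), 5 (Zn against N), 0 (C-limited mutant) and 23 (N-limited mutant against wild type). No filter gave 0 (P against S) and 9 (N-limited mutant), all probe sets 9 (N-limited mutant), a mean signal of at least 50 gave 6 (Zn against S) and 9 (Zn against P), and no floor 4 (C-limited mutant). Against the C-limited mutant, S limitation gave 7 and P limitation 15.

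With one array left out at a time the counts ran from 18 to 32 (Zn against C), 11 to 22 (N against C), 32 to 54 (P against C), 26 to 48 (S against C), 0 to 2 (P against S), 3 to 28 (N against S), 10 to 35 (N against P), 1 to 3 (Zn against N), 7 to 20 (Zn against S), 4 to 27 (Zn against P), 0 to 13 (C-limited mutant against wild type), 5 to 26 (N-limited mutant against wild type), 0 to 45 (N against C in the mutant) and 0 to 3 (difference of effects). The member median reversed to 0.01 for the C-limited mutant without the doubtful array, and to 0.09 for the difference of effects without replicate 2 of the C-limited mutant; over the arrays left out these medians ran from -0.60 to 0.01 and from -0.57 to 0.09. The cause of these shifts was not tested. With the replicate block, which the numbers do not bear out as a pairing, the counts were 20, 14, 44 and 34 for Zn, N, P and S against C limitation and 0 for P against S limitation, where MRP4 no longer passed. Of the named members' differences under all settings, 961 kept their side of the threshold and direction, 135 kept the direction without passing and 10 reversed. Signal near the floor limits MRP35, RSM22, MRP13 and RSM23.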
